A study of Homo sapiens with 4 samples.

Results

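The genes described here are the ligands and receptors of axon guidance: semaphorins of classes 3 to 7 with their plexin and neuropilin receptors, ephrins with Eph receptors, Slits with Robo receptors, and netrins with DCC and the UNC5 receptors. They were picked out by gene symbol, from families chosen with earlier results of these data known, and each gene was read on the probe set that was brightest on average. This gave 70 genes of 18132 measured, 37 of them ligands and 33 receptors. The samples were U87MG cells, an established human glioblastoma line, on PrimeView arrays. All cells were kept in 10% serum, 5% carbon dioxide and 0.2% oxygen, so low oxygen is shared by both groups. The control group (2 arrays) had been transfected with a PCMV control vector and the NeuroD2 group (2 arrays) with a vector expressing NeuroD2, a basic helix-loop-helix transcription factor of neurons, and RNA was taken 48 hours later. The labels call the 2 arrays of a group biological replicates but do not say whether these were separate cultures. The p-values below therefore measure only the spread between these samples, which may be technical. Transfection leaves a mixture of cells with and without the vector, whose shares were not given in the sources used here, and a change in fewer cells cannot be told apart from a smaller change in all of them.

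Axon guidance cues are secreted or membrane-bound proteins that turn growing axons and migrating cells towards or away from a source. Semaphorins mostly repel through plexins, with neuropilins as co-receptors for most class 3 members. Ephrins are bound to the membrane, so ephrin and Eph receptor signal at cell contacts and in both directions. Slits repel through Robo receptors, while netrins attract through DCC and repel through UNC5. In glioblastoma the same families are known for roles in invasion and in the growth of blood vessels.

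With the NeuroD2 vector 2 of the 70 genes fell, EPHA5 and NTNG1, and none rose. EPHA5, an ephrin-A receptor, fell by 0.52 on the log2 scale and NTNG1, the membrane-anchored netrin-G1, fell by 0.42. The share called, 2.86%, stood beside 4.77% of all genes (2.96% lower and 1.81% higher). The differences of the other 68 members ran from -0.36 for PLXNA4 to 0.44 for EFNB2. None of the 70 reached a difference of 1, which is 2-fold, and such differences were rare in the whole table too (78 of 18132 genes).

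The promoters of the genes that fell are shown because NeuroD2 binds E-box sequences in DNA (CANNTG, with N any base). These are the 250 bases before each annotated gene start, from the RefSeq promoter table of GRCh38.p14, 5′ to 3′ on the gene's strand, with any E-box in capitals. The first lies at chr4:65670490-65670739 on the minus strand and the second at chr1:107139838-107140087 on the plus strand.
EPHA5: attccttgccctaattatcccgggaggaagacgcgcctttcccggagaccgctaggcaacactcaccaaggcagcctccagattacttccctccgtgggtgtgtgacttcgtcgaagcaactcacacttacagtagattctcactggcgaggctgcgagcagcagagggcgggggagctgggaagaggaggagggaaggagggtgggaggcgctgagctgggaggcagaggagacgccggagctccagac
NTNG1: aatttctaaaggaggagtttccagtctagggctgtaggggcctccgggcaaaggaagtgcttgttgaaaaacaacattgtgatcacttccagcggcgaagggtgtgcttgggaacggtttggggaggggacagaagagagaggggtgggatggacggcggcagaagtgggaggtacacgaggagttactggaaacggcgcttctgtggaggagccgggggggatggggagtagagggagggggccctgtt
Neither of these stretches held an E-box. Just downstream of the annotated start of NTNG1 lay 1 E-box, of the form CAGCTG, at chr1:107140119-107140124, shown in capitals within 30 bases (chr1:107140107-107140136, plus strand).
NTNG1 site: gtggagcggcagCAGCTGcagccggagcag
Over windows of 300 bases (250 before and 50 after the start), CANNTG was present for 35 of the 59 members with a promoter entry (59.3%) and for 68.9% of all 27305 promoters. The form CAGATG, searched like the others on both strands, was present for 4 members (6.78%) and 14.8% of all promoters. The palindrome CAGCTG was present for 13 members (22.0%) and 17.7% of all promoters. The form CAGGTG, a search added after the data were seen, was present for 9 members (15.3%) and 20.6% of all promoters. All 3 forms are themselves cases of CANNTG, and a match describes letters only.

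The overexpressed gene was measured first as a check of the labels. NEUROD2 read 5.46 and 5.35 on the control arrays and 7.37 and 7.82 on the NeuroD2 arrays, a rise of 2.19 on the log2 scale (95% interval 1.82 to 2.57, adjusted p = 0.0044 by limma). That probe set has the suffix s_at, a kind that can match more than 1 transcript, and on the remaining 2 probe sets the differences were -0.21 and -0.07. The array-wide controls also differed between arrays. The hybridisation spikes, foreign RNAs added in equal amounts, averaged 9.56 and 9.90 on the control arrays and 10.10 and 10.13 on the NeuroD2 arrays, a difference of 0.39 (0.22 without control replicate 1). Control replicate 1 averaged 6.95 over the poly-A spikes, while the lowest and highest of the remaining arrays were 7.96 and 8.03. Their part in the results on members was not tested. Of 11 measured markers of glioma cells, VIM lay between 14.12 and 14.18 and CD44 between 12.74 and 12.92, while GFAP lay between 6.07 and 6.35 and SOX2 between 4.36 and 4.73. TNC rose and CHI3L1 fell, and the other 9 did not pass. Of 12 neuron markers MAP2 and SNAP25 fell and 10 did not pass, while 0 of 7 endothelial, 0 of 7 myeloid and 0 of 5 oligodendrocyte markers passed by limma. Of all genes 4.77% passed. At an unadjusted p below 0.05 stood 4 glioma cell, 4 neuron, 1 endothelial, 2 myeloid and 0 oligodendrocyte markers, beside 21.8% of all genes. The 4 glioma cell markers were CHI3L1 (-0.51), TNC (0.45), OLIG2 (0.39) and GFAP (0.24). The 4 neuron markers were MAP2 (-1.23), SNAP25 (-0.59), STMN2 (0.21) and NEFM (0.25), so they differed in direction, and the median difference of the 12 was -0.02. No detection calls were used, so no gene is called absent.

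**Figure D1:**
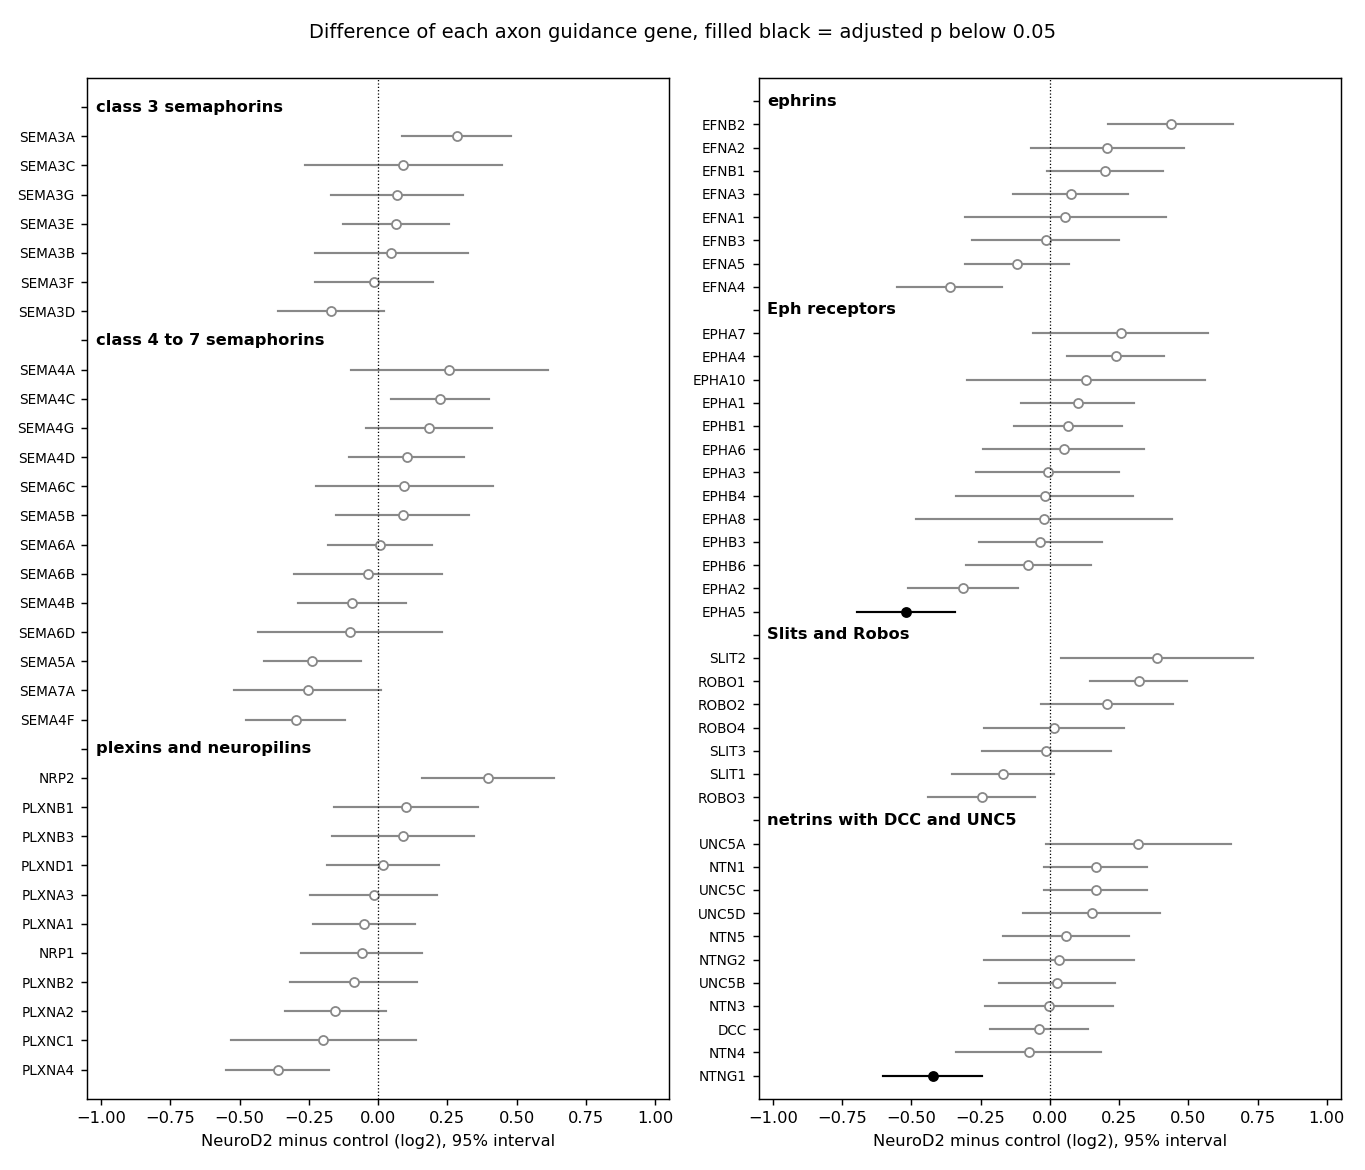
Difference of each of the 70 genes, NeuroD2 vector minus control vector on the log2 scale (x axis), by family, with points for the estimate and lines for the 95% interval from limma (2 arrays a group). EPHA5 and NTNG1, in filled black, are the members with an adjusted p below 0.05, and every interval lies between -1 and 1.

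Among the receptors, EPHA5 showed the largest difference of any member. It is a receptor tyrosine kinase of the nervous system that binds ephrin-A ligands. EPHA5 read 4.34 and 4.31 on the control arrays and 3.82 and 3.79 on the NeuroD2 arrays. These are dim values, below the median level of all genes (6.56). Both NeuroD2 arrays lay below both control arrays, as in 26.6% of all genes, while in a further 24.2% both lay above. For EPHA5 the gap between the groups was many times that within them. The fall was 0.52 on the log2 scale (standard error 0.07, 95% interval -0.70 to -0.34, 1.43-fold lower, adjusted p = 0.023 by limma). The other EPHA5 probe set, which was dimmer, read 3.34 and 3.12 against 3.29 and 3.24, a difference of 0.03 (adjusted p = 0.910 among all probe sets). The fall was therefore seen on 1 of 2 probe sets, and with the mean of both it was -0.24 and did not pass (adjusted p = 0.115).

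The remaining Eph receptors among the members did not pass. EPHA2, a receptor often raised in epithelial cancers and gliomas, read 8.23 and 8.11 on the control arrays and 7.84 and 7.88 on the NeuroD2 arrays (difference -0.31, adjusted p = 0.092). Its second probe set gave 0.01. EPHA4, which unlike most EphA receptors also binds ephrin-B ligands, read 4.92 and 4.94 against 5.17 and 5.16 (difference 0.24, adjusted p = 0.129). Its other, dimmer probe sets gave 0.13, 0.08 and -0.08. For EPHA2 and EPHA4 the groups did not overlap on the brightest probe set. EPHA7 read 4.45 and 4.16 against 4.45 and 4.67 (difference 0.26, adjusted p = 0.322), with overlapping groups. Its other probe sets ran from -0.08 to 0.38. The other EphA receptors (EPHA1, EPHA3, EPHA6, EPHA8 and EPHA10) had differences between -0.02 and 0.13. The 4 EphB receptors among the members (EPHB1, EPHB3, EPHB4 and EPHB6) lay between -0.08 and 0.07. In all 9 of these measured genes the groups overlapped, and in 50.8% of all genes they did not. EPHB2, a further EphB receptor, was not among the members, so the EphB family is not complete here.

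The ephrins, the ligands of these receptors, were led by EFNB2 and EFNA4, which differed in opposite directions. EFNB2 encodes ephrin-B2, the arterial partner of the receptor EPHB4. It read 9.76 and 9.94 on the control arrays and 10.33 and 10.25 on the NeuroD2 arrays, a difference of 0.44 (95% interval 0.21 to 0.66, adjusted p = 0.058). Both NeuroD2 arrays were above both controls. All 4 EFNB2 probe sets were higher with NeuroD2, by 0.44 to 0.59, and 2 of them, not the brightest, passed on their own among all probe sets (adjusted p = 0.028 and 0.037). These 2 read 7.19 and 7.26 against 7.79 and 7.83, and 6.84 and 6.85 against 7.47 and 7.33. Averaged over all 4 of its probe sets, EFNB2 rose by 0.51 (adjusted p = 0.014). Its receptor EPHB4 read 5.91 and 5.67 against 5.63 and 5.92, a difference of -0.02 with a 95% interval of -0.34 to 0.30.

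EFNA4, a lipid-anchored ephrin with a single probe set, read 6.48 and 6.42 on the control arrays and 6.05 and 6.13 on the NeuroD2 arrays (difference -0.36, 95% interval -0.55 to -0.17, adjusted p = 0.060). The groups did not overlap. EFNA2 differed by 0.21 and EFNB1, a further transmembrane ephrin, by 0.20, both with no overlap and neither passing (adjusted p = 0.355 and 0.250). EFNA1, EFNA3, EFNA5 and EFNB3 lay between -0.12 and 0.08 on their brightest probe sets. Of the 5 EFNA3 probe sets 2 were higher and 3 lower, down to -0.32, and 0 passed on their own. Of the 8 ephrins 0 passed, with 2 at an unadjusted p below 0.05 (25% against 21.8% of all genes).

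**Figure D2:**
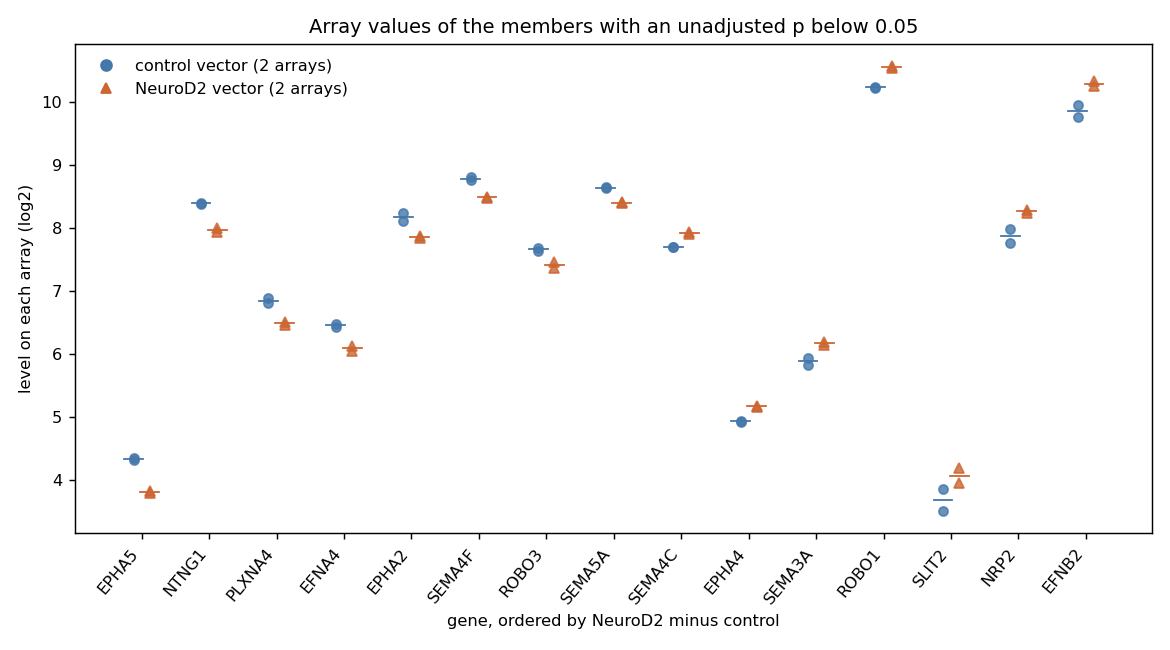
Level on each array (y axis, log2) of the 15 members with an unadjusted p below 0.05, with circles for the 2 control vector arrays, triangles for the 2 NeuroD2 vector arrays and lines for the group means. Genes are ordered by difference, from EPHA5 (4.34 and 4.31 against 3.82 and 3.79) to EFNB2 (9.76 and 9.94 against 10.33 and 10.25), and levels of different genes are not comparable on this scale.

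NTNG1 was the member that fell in the netrin group. Netrin-G1 is held at the membrane by a lipid anchor and binds the synaptic adhesion protein NGL-1, not DCC or UNC5. NTNG1 read 8.40 and 8.38 on the control arrays and 7.99 and 7.94 on the NeuroD2 arrays. The 4 values fell into 2 tight pairs, with the NeuroD2 pair lower. The fall was 0.42 on the log2 scale (standard error 0.07, 95% interval -0.60 to -0.24, 1.34-fold lower, adjusted p = 0.038 by limma). All 3 NTNG1 probe sets were lower with NeuroD2, by -0.42, -0.48 and -0.18, and when every probe set was tested on its own the brightest did not pass (adjusted p = 0.052). With the mean of the 3 the difference was -0.36 (adjusted p = 0.058).

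The other 10 genes of the netrin group had differences from -0.08 to 0.32 and did not pass. UNC5A, a receptor for repulsion by netrin-1, read 4.71 and 4.59 against 4.78 and 5.15 (difference 0.32, adjusted p = 0.248). NTN1, the secreted netrin-1, read 4.57 and 4.63 against 4.73 and 4.80 (difference 0.17, adjusted p = 0.279), though its second probe set was at -0.11. UNC5C read 4.60 and 4.52 against 4.71 and 4.74 (difference 0.16, adjusted p = 0.279). In these 3 genes both NeuroD2 arrays were above both controls, as in 24.2% of all genes. For UNC5A the margin was smaller than the gap within either group. DCC, the receptor for attraction, differed by -0.04 with a 95% interval of -0.22 to 0.14. UNC5B, UNC5D, NTN3, NTN4, NTN5 and NTNG2, the other netrin-G gene, lay between -0.08 and 0.15. The NTNG2 difference was 0.03, with a 95% interval of -0.24 to 0.31.

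Among the semaphorins, none of the 20 passed. Class 3 semaphorins are secreted and include SEMA3A, the founding repellent. SEMA3A read 5.83 and 5.94 on the control arrays and 6.20 and 6.14 on the NeuroD2 arrays (difference 0.28, 95% interval 0.09 to 0.48, adjusted p = 0.113), with no overlap. SEMA3C, known for a role in glioma stem cells, read 10.05 and 10.46 against 10.28 and 10.42 on its brightest probe set (difference 0.09, adjusted p = 0.782), and the groups overlapped. Without control replicate 1 the SEMA3C difference was -0.11. All 6 SEMA3C probe sets were higher with NeuroD2, from 0.04 to 0.50, and the largest, at 5.71 and 5.87 against 6.37 and 6.21, did not pass among all probe sets (adjusted p = 0.062). SEMA3D read 3.54 and 3.57 against 3.33 and 3.44 (difference -0.17, adjusted p = 0.279), and SEMA3B, SEMA3E, SEMA3F and SEMA3G lay between -0.02 and 0.07.

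Semaphorins of classes 4 to 7 are held at the membrane. SEMA4F, a transmembrane semaphorin, read 8.80 and 8.76 on the control arrays and 8.48 and 8.49 on the NeuroD2 arrays (difference -0.30, 95% interval -0.48 to -0.12, adjusted p = 0.080). SEMA7A, the lipid-anchored semaphorin that signals through integrins as well as PLXNC1, read 11.28 and 11.01 against 10.91 and 10.88 (difference -0.26, adjusted p = 0.245). Its 4 probe sets were all lower, from -0.28 to -0.21. SEMA4A read 4.42 and 4.21 against 4.38 and 4.76 (difference 0.26, adjusted p = 0.373), with overlap.
SEMA4C, a ligand of PLXNB2, read 7.70 and 7.69 against 7.90 and 7.93 (difference 0.22, adjusted p = 0.147). SEMA5A read 8.64 and 8.63 against 8.41 and 8.40 on its brightest probe set (difference -0.24, adjusted p = 0.129), while its other 4 probe sets were higher with NeuroD2, by 0.18 to 0.26. The SEMA5A probe sets therefore gave no single direction. SEMA4B, SEMA4D, SEMA4G, SEMA5B, SEMA6A, SEMA6B, SEMA6C and SEMA6D lay between -0.10 and 0.18.

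Of the 11 plexins and neuropilins 0 passed, with 2 at an unadjusted p below 0.05 (18.2% against 21.8% of all genes). NRP2, a co-receptor for class 3 semaphorins and for VEGF-C, read 7.98 and 7.75 on the control arrays and 8.28 and 8.24 on the NeuroD2 arrays (difference 0.40, 95% interval 0.16 to 0.64, adjusted p = 0.080). The groups did not overlap. All 9 NRP2 probe sets were higher with NeuroD2, by 0.10 to 0.49, with 0 passing on their own (lowest adjusted p = 0.070), and the mean of the 9 passed (0.31, adjusted p = 0.049). NRP1, the preferred co-receptor of SEMA3A, read 10.92 and 11.10 against 10.94 and 10.96 (difference -0.06, 95% interval -0.28 to 0.16), with 3 of its 6 probe sets higher and 3 lower. Whether the NRP2 and NRP1 differences themselves differ was not tested.

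PLXNA4, a plexin that transduces SEMA3A and class 6 semaphorins, read 6.81 and 6.88 on the control arrays and 6.46 and 6.51 on the NeuroD2 arrays (difference -0.36, 95% interval -0.55 to -0.18, adjusted p = 0.056). Its 3 probe sets were all lower, from -0.36 to -0.15. PLXNA2 read 7.87 and 7.94 against 7.75 and 7.74 (difference -0.15, adjusted p = 0.297). Its second, dimmer probe set was at -0.46 and did not pass among all probe sets (adjusted p = 0.099). PLXNA1 and PLXNA3 were at -0.05 and -0.02. PLXNC1, the receptor of SEMA7A, lay between 3.87 and 4.34 over the 4 arrays (difference -0.20, adjusted p = 0.465), with overlapping groups and a second probe set at 0.04. PLXNB1, PLXNB2, PLXNB3 and PLXND1 lay between -0.09 and 0.10. PLXNB2, a plexin that glioma cells are known to use in invasion, differed by -0.09 with a 95% interval of -0.32 to 0.14.

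Of the 7 Slits and Robos 0 passed, with 3 at an unadjusted p below 0.05 (42.9% of a small family, against 21.8% of all genes). SLIT2, the secreted repellent, read 3.85 and 3.51 on the control arrays and 4.19 and 3.95 on the NeuroD2 arrays (difference 0.39, 95% interval 0.04 to 0.73, adjusted p = 0.191). These are dim values, below the median level of all genes (6.56), and SLIT2 has a single probe set. The lower NeuroD2 array exceeded the higher control array by less than the gap between the controls. ROBO1, its main receptor, read 10.22 and 10.23 against 10.57 and 10.53 (difference 0.32, 95% interval 0.14 to 0.50, adjusted p = 0.066), with the arrays of each group close together. All 3 ROBO1 probe sets were higher with NeuroD2, by 0.32 to 0.43, and their mean passed (0.38, adjusted p = 0.033).
ROBO2 was dim, at 3.31 and 3.16 against 3.52 and 3.35 on its brightest probe set. The lowest value of all probe sets on any array was 2.65. The 3 ROBO2 probe sets were all higher, by 0.13 to 0.31, and ROBO2 did not pass (0.21 on the brightest, adjusted p = 0.294). ROBO3, a divergent Robo of commissural axons, read 7.64 and 7.68 against 7.46 and 7.36 (difference -0.25, adjusted p = 0.143), but its other 3 probe sets were higher, by 0.01 to 0.20. The brightest ROBO3 probe set has the suffix x_at, a kind that can match several genes. SLIT1, SLIT3 and ROBO4 lay between -0.17 and 0.02.

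**Figure D3:**
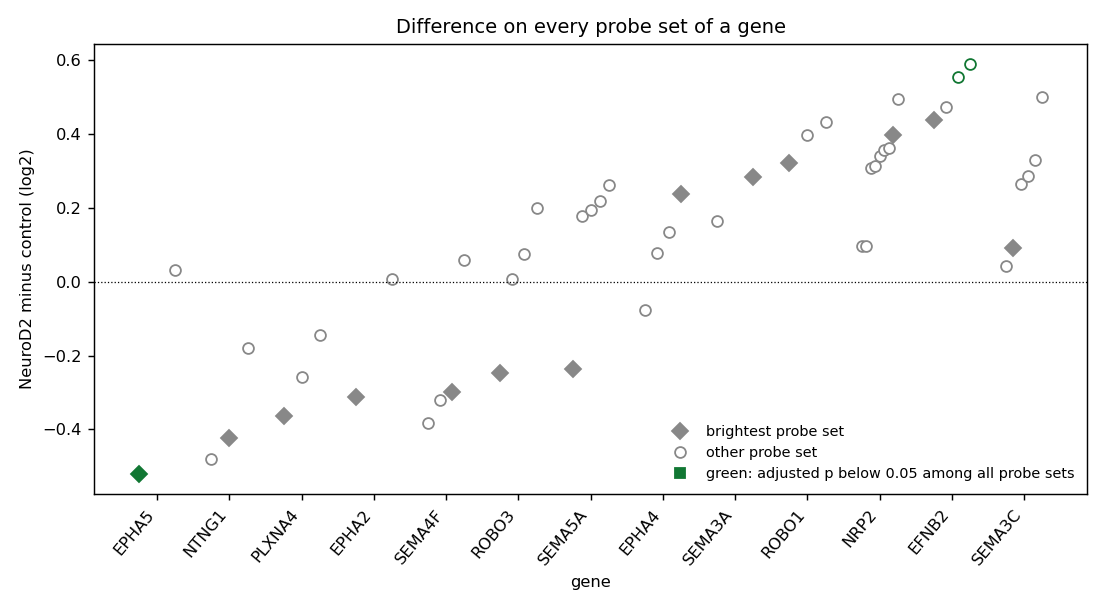
Difference of every probe set (y axis, NeuroD2 vector minus control vector, log2) for 13 genes: the 12 with several probe sets and an unadjusted p below 0.05, and SEMA3C. Diamonds are the brightest probe sets and circles the others, and green marks an adjusted p below 0.05 among all probe sets, as reached by 1 of EPHA5 and 2 of EFNB2. Every probe set of NRP2 and ROBO1 lies above 0, and the brightest probe sets of SEMA5A and ROBO3 lie below 0 with the others of these genes above it.

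Probe sets of one member often differed in direction. Of the 59 members with more than 1 probe set, 25 had all of them on the same side of 0. This count was not made over all genes, so it is not read as a trait of the members. Over all 205 probe sets of the members, 3 passed when tested on their own (1.46% against 3.03% of all 44988 probe sets). Of these, 2 read EFNB2 and were higher, and 1 read EPHA5 and was lower.

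As a group the 70 genes lay close to the whole table. Their median difference was 0.02 against 0 for all genes, and their median absolute difference was 0.10 against 0.11. At an unadjusted p below 0.05 stood 15 members, 7 higher and 8 lower, which is 21.4% against 21.8% of all genes (9.27% higher and 12.5% lower). The groups did not overlap in 31 members, 15 higher and 16 lower, or 44.3% against 50.8% of all genes (24.2% higher and 26.6% lower). The 95% interval lay inside -1 to 1 for all 70 members, against 98.9% of all genes. It lay inside -0.5 to 0.5 for 56 of the 70 members and for 14869 of all 18132 genes. Among the ligands 8 of 37 stood at an unadjusted p below 0.05, and among the receptors 7 of 33.

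**Figure D4:**
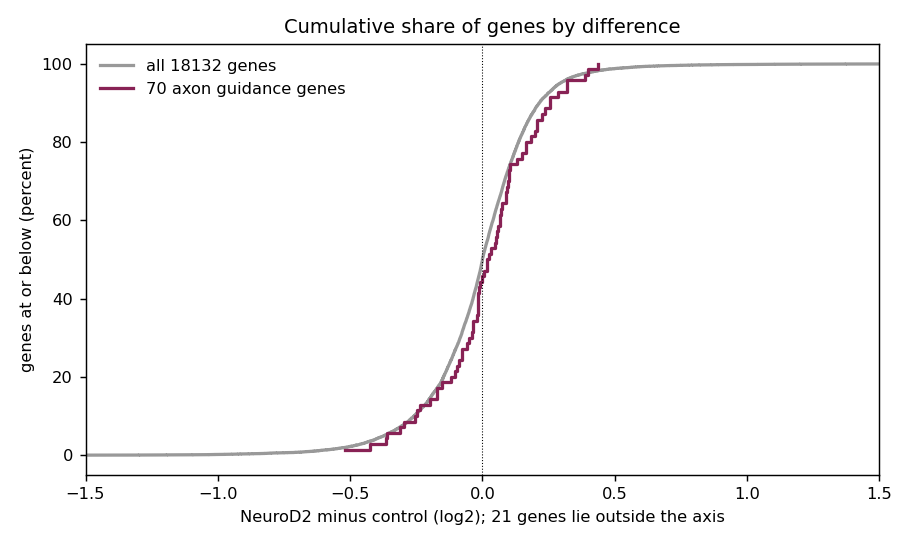
Cumulative percent of genes (y axis) by difference, NeuroD2 vector minus control vector on the log2 scale (x axis), for all 18132 genes in grey and the 70 axon guidance genes in purple. The curves cross 50 percent near 0 (medians 0 and 0.02), and the axis is limited to 1.5 either way, which leaves out 21 genes of the whole table and no member.

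The members split by level. Of the 70, 25 had a mean at or above the median of all genes and 45 below it. Of the brighter 25, 10 had an unadjusted p below 0.05 (40% against 30.6% of all genes as bright), and of the dimmer 45 there were 5 (11.1% against 12.9%). When the fit was limited to the brighter genes, 10 of the 25 passed, against 23% of all genes kept. EFNB2, NRP2, ROBO1 and SEMA4C were then higher, and EPHA2, NTNG1, PLXNA4, ROBO3, SEMA4F and SEMA5A lower. EPHA5, below the median level, was not kept in that fit. With an intensity trend in the variance, 8 of the 70 passed (11.4% against 11.3% of all genes), namely EFNB2, NRP2 and ROBO1 higher and EPHA2, EPHA5, NTNG1, PLXNA4 and SEMA4F lower. Both settings called more of all genes too. When all probe sets of each gene were averaged, 4 members passed (6.55% of all genes), EFNB2, NRP2 and ROBO1 higher and EFNA4 lower, and EPHA5 and NTNG1 did not. With quantile normalization EFNB2 was added to EPHA5 and NTNG1 (5.31% of all genes).

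With 1 array left out, its group has 1 array, which is assumed to vary like the other group, and EPHA5 and NTNG1 were then not called. Dropping the first or second control array gave EPHA5 differences of -0.51 and -0.53, and dropping the first or second NeuroD2 array gave -0.54 and -0.50. Its adjusted p then ran from 0.141 to 0.202. The NTNG1 difference was -0.41, -0.43, -0.45 and -0.40 in the same order, and its adjusted p ran from 0.141 to 0.286. Every one of these values stayed negative while the calls were lost. That sign could not turn, because in both genes both NeuroD2 arrays lay below both control arrays. Of all genes, 0 passed limma without either control array (4428 and 4102 at an unadjusted p below 0.05), so those fits could call no member, and 57 and 66 passed without either NeuroD2 array.

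The proteins that act downstream of these receptors, their co-receptors and related guidance genes were read as a list of 110 genes, of which 105 were measured. Of these, 1 rose, 4 fell and 100 did not pass. The share called was 4.76% against 4.77% of all genes, and the median difference was 0.01. RND3, a regulator of the actin cytoskeleton, read 12.28 and 12.41 on the control arrays and 12.97 and 12.96 on the NeuroD2 arrays. Both NeuroD2 arrays were higher than both controls. The rise was 0.62 (95% interval 0.42 to 0.82, 1.54-fold, adjusted p = 0.020 by limma). All 3 RND3 probe sets passed on their own, with rises of 0.62, 0.86 and 1.04, and the last of these was also the value without s_at and x_at probe sets.

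The collapsin response mediators DPYSL2 and DPYSL3, cytoskeletal proteins that carry the SEMA3A signal inside the growth cone, both fell. The other 3 genes of their family did not pass: DPYSL4 was at -0.23, CRMP1 at 0.07 and DPYSL5 at 0.10 (adjusted p = 0.172, 0.628 and 0.520), each with no overlap. DPYSL2 read 11.80 and 11.85 on the control arrays and 11.34 and 11.42 on the NeuroD2 arrays (difference -0.44, adjusted p = 0.039). Of its 4 probe sets 3 were lower, and with their mean the difference was -0.20 and did not pass (adjusted p = 0.184), nor did it without s_at and x_at probe sets (-0.38, adjusted p = 0.066). DPYSL3 read 9.41 and 9.41 against 8.95 and 8.94 (difference -0.47, adjusted p = 0.028), with both probe sets lower.
MAGED1, an adaptor that binds UNC5A and the neurotrophin receptor p75, read 11.55 and 11.53 against 11.04 and 11.03 (difference -0.51, adjusted p = 0.024). All 4 MAGED1 probe sets passed on their own, from -0.58 to -0.51. EVL, an actin regulator of the Ena/VASP family, read 6.70 and 6.51 against 6.16 and 6.09 (difference -0.48, adjusted p = 0.047). Its 3 probe sets ran from -0.48 to -0.01, and their mean, -0.23, did not pass (adjusted p = 0.137). The EVL call was also lost with a robust prior (adjusted p = 0.052). Without any 1 of the 4 arrays none of these 5 was called, with differences between 0.55 and 0.69 for RND3, -0.48 and -0.40 for DPYSL2, -0.47 and -0.46 for DPYSL3, -0.52 and -0.50 for MAGED1, and -0.57 and -0.39 for EVL.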

How the data were processed

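RNA of 4 U87MG samples was read on PrimeView arrays. The authors' deposited table holds 49395 probe sets and is read here as log2 values because of its range (2.65 to 14.3) and its near-equal array medians (5.98 to 5.99). The software, background correction and normalization behind it: not given in the sources used here. Probe sets with 1 gene symbol in the platform annotation (44988) gave 18132 genes, each read on its brightest probe set. No symbol changed on matching to RefSeq of GRCh38.p14. Groups were compared with limma 3.58.1 in R 4.3.3 (lmFit and eBayes, two-sided, 2 residual and 3.84 prior degrees of freedom), with Benjamini-Hochberg adjustment over all genes and a threshold of 0.05. "Passed", "rose" and "fell" refer to it. With 2 arrays a group an exact permutation test cannot go below 0.333, so none was used, and the number of arrays limits the precision. Probe sets were also fitted each on its own. The fit was tested on simulated data. The members and lists were chosen with earlier results of these data known. Named genes were NEUROD2, members that passed, up to 3 further members of each family by absolute difference and downstream genes that passed. The others named with values (SEMA4C, SEMA5A, ROBO2, PLXNA2, EFNA3, EFNB1, NRP1, EPHB4, CRMP1, DPYSL4, DPYSL5 and markers) were chosen after their values were seen. Alternatives covered a block on replicate numbers, each array left out in turn, quantile normalization, median centring, a variance trend with intensity, a robust variance prior, genes above the median level only, averaged probe sets, and s_at and x_at probe sets removed.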

Additional observations from a re-analysis of the deposited data

How the results depend on the processing

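The replicate numbers are shared by the groups, but the labels do not tie them to a batch and the deviations of same-numbered arrays correlated at only 0.08, so they were not used as pairs. With the replicate number as a block 135 genes were higher and 200 lower, 0 members and 0 downstream genes were lower, and RND3 stayed higher. Leaving out 1 array at a time gave 0 to 37 genes higher and 0 to 29 lower, with 0 members and 0 downstream genes in either direction. NEUROD2 then ranged from 1.97 to 2.42 and lost its call without either control array. It turned to -0.21 without s_at and x_at probe sets, which is its next brightest probe set, and was -0.071 on the dimmest. An intensity trend gave 763 higher and 1293 lower, with members at 3 and 5 and downstream genes at 6 and 9. Genes at or above the median level gave 799 and 1282, with members at 4 and 6 and downstream genes at 8 and 7; NEUROD2 was not kept there. Averaged probe sets gave members at 3 and 1. Of the downstream genes 6 were then higher, and CLASP2, DPYSL3, MAGED1 and PTPN13 were lower. Without s_at and x_at probe sets RND3 was higher, and DPYSL3, LIMK2 and MAGED1 were the downstream genes called lower. Quantile normalization gave 1 member and 3 downstream genes higher, and median centring 3 downstream genes higher. In both, the members and downstream genes called lower were those of the main fit. Directions turned on other probe sets for DPYSL2 (0.049), EPHA2 (0.0062), EPHA4 (-0.077), EPHA5 (0.032), EPHA7 (-0.076), NTN1 (-0.11), PLXNC1 (0.038), SEMA4F (0.057) and ROBO3 (0.20, 0.074 and 0.0069). ROBO3 was also 0.0080 with averaged probe sets and 0.20 without s_at and x_at probe sets, and SEMA3C ran from -0.11 (without control replicate 1) to 0.30 (without control replicate 2). The causes were not tested. Of the 333 values of the named genes over 12 alternatives, 268 kept their direction and their side of the threshold, mostly for genes that were not called to begin with. The 7 called members and downstream genes kept theirs in 41 of 82.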
